A study of Bos taurus with 8 samples.

Results

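The chromosome 8 probes of a methylation array were examined in the arcuate nucleus of the hypothalamus of heifers raised on a high-gain or a low-gain feeding schedule. They were all non-control probes whose position in the array design lay on chromosome 8 of Btau_3.1, 300 of 10249 in all. Split wherever neighbouring starts lay over 20000 bp apart, they formed 1 tiled locus of 299 probes, chr8:115160462-115352210, and 1 lone probe, chr8:89745989-89746049. All animals were female cattle, on a feeding schedule that lasted until the tissue was taken at 8.5 months and had begun at 4.5 months. The target was a gain of 1 kg a day in the high-gain group (heifers 1 to 4) and 0.5 kg a day in the low-gain group (heifers 5 to 8). Each heifer gave 1 array, on which the DNA held by a methyl-CpG binding domain protein (enriched, red) competed with the total DNA of the same animal (input, green). No group was left without a feeding target, so the low-gain heifers served as the comparison.

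In mammals DNA methylation lies mostly on cytosines that precede a guanine, and CpG-dense stretches near gene starts are often free of it. A methyl-CpG binding domain protein holds double-stranded DNA in proportion to the methylated CpG it carries, so a stretch poor in CpG can read low without being unmethylated. The arcuate nucleus is a feeding centre of the hypothalamus, whose neurons sense leptin and other signals of body energy and act on the neurons that release gonadotropin-releasing hormone at puberty. The design asks whether feeding before puberty changed methylation in this tissue.

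Values are log2 ratios of enriched to input signal, relative to the median of all 10249 probes of the same array. A value of 0 is therefore the median probe and not an absence of methylation. No gene is given for any probe in the files, and no Btau_3.1 annotation was used here, so positions stand in place of names. Their relation to genes, exons and introns was not analysed here.

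The tiled locus spanned 191749 bp. Its probes were 46 to 61 bp long, with a median of 449.5 bp between neighbouring starts, a smallest distance of 147 bp and a largest of 6030 bp. It ranked 10th by number of probes among the 97 tiled loci of at least 10 probes, whose median was 55. Probes with starts at most 1000 bp apart formed 34 regions of at least 3 probes (3 to 22 each), which held 279 of the 299 probes. The other 20 probes stood alone or in pairs. On all 8 arrays, 138 probes of the locus were well above background in the enriched channel and 223 in the input channel. The enriched signal was well above background on no array at 24 probes, on no high-gain array at 27 and on no low-gain array at 57. At such probes a low ratio is only a bound.

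The low-gain heifers did not form 1 set of like arrays on this locus. Across its 299 probes, which share arrays and neighbours and so are no replicates, r was 0.520 to 0.679 for the 3 pairs among low-gain heifers 6, 7 and 8. Between low-gain heifer 5 and each of them it was only -0.0906 to 0.0669, and between heifer 5 and the high-gain heifers 0.0403 to 0.275. High-gain heifers correlated with one another at only 0.0283 to 0.225. The probes of all other chromosomes gave similar ranges among low-gain heifers 6, 7 and 8 (0.576 to 0.668) and within the high-gain group (0.0382 to 0.190). Between heifer 5 and heifers 6, 7 and 8 they gave 0.0939 to 0.143, low as well but above the range on the locus. Between heifer 5 and the high-gain heifers they gave 0.138 to 0.211. For probe pairs with starts at most 200 bp apart (35 pairs), neighbours correlated within an array at 0.00553 to 0.705, the highest in low-gain heifer 8. For the 217 pairs over 200 and up to 1000 bp apart the range was -0.0371 to 0.113, so neighbours that far apart were close to unrelated.

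The ratios also moved with the brightness of the input signal, differently in heifers 6, 7 and 8 than in the rest. All probes of the array were ranked by mean input signal and divided into 5 equal classes. In the brightest class, the 51 locus probes averaged 0.08, -0.01, -0.19 and 0.11 in high-gain heifers 1 to 4, against 0.03, -1.05, -1.02 and -1.64 in low-gain heifers 5 to 8. Low-gain heifer 5 lay inside the high-gain range there, and heifers 6, 7 and 8 lay far below it. In the dimmest class, the 49 locus probes averaged 0.01, 0.07, 0.25 and -0.01 in high-gain heifers, against -0.22, 0.47, 0.78 and 1.04 in low-gain heifers. The high-minus-low difference thus went through -0.44, -0.10, -0.01, 0.35 and 0.92 from the dimmest to the brightest class. The probes of all other chromosomes showed the same order, -0.63, -0.21, 0.01, 0.30 and 0.65, so it was not peculiar to chromosome 8. The part of input brightness in the single differences below was not tested.

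**Figure D1:**
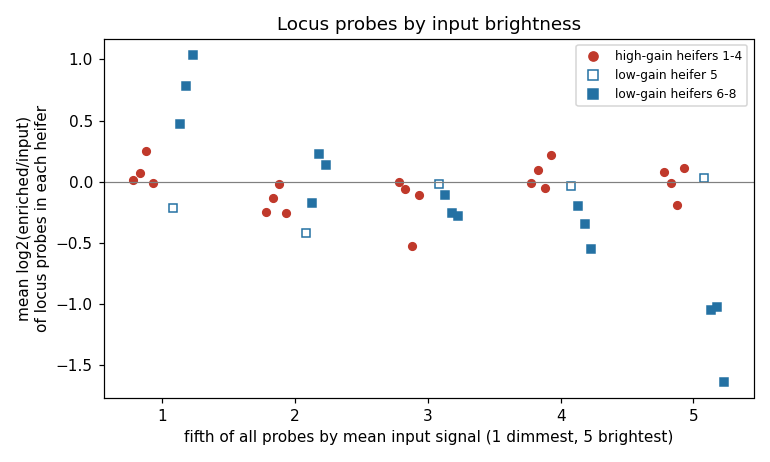
Mean log2(enriched/input) of the chromosome 8 locus probes in each heifer (y axis), for 5 equal classes of all array probes by mean input signal (x axis, 1 dimmest to 5 brightest). Circles are high-gain heifers, the open square is low-gain heifer 5 and filled squares are low-gain heifers 6 to 8, which lie at 0.47 to 1.04 in class 1 and at -1.64 to -1.02 in class 5.

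The mean of the locus lay slightly below the array median in every heifer, and its group difference did not pass. Its mean was -0.05, -0.01, -0.11 and -0.02 in high-gain heifers 1 to 4, against -0.14, -0.21, -0.12 and -0.25 in low-gain heifers 5 to 8. Every high-gain heifer lay above every low-gain heifer, the closest being high-gain heifer 3 and low-gain heifer 7. The mean was -0.05 ± 0.05 over high-gain arrays and -0.18 ± 0.06 over low-gain arrays (SD, n = 4 each). In the fit across 97 loci the difference was 0.13 with a 95% interval of -0.10 to 0.36, and it did not pass (limma, unadjusted p = 0.228, Benjamini-Hochberg adjusted p = 0.531). Of the 97 loci, 2.06% had all high-gain arrays above all low-gain arrays, and 0 passed the adjusted threshold, while 4.12% were higher and 10.3% lower at an unadjusted p under 0.05. Over both groups the locus averaged -0.12 (standard error 0.05) and did not pass against 0 (limma, adjusted p = 0.102), as 41.2% of the 97 loci did, 34% below 0 and 7.22% above it. The median over its probes averaged only -0.0057, and the median of chromosome 8 was above 0 in high-gain heifers 3 and 4 (0.03 and 0.14) and in low-gain heifer 6 (0.02). With loess the mean over both groups was -0.02.

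As 1 value per array over all 300 probes, the mean differed by 0.13 (exact permutation p = 0.0286, two-sided, the smallest that 4 against 4 allows; 0.0714 after adjustment over 5 measures). Among the 4 heifers of slide row 1 it was 0.14, and among the 4 of row 2 it was 0.13. With loess the difference was 0.04, and without the brightest 10% of input probes it was 0.06, each below the reported value by more than 1.5 times. Relative to the mean of all other probes of the same array, an addition made after seeing these values, chromosome 8 lay at 0.05 ± 0.08 over high-gain arrays and at -0.06 ± 0.03 over low-gain arrays (SD, n = 4 each). High-gain heifer 2, at -0.02, overlapped low-gain heifer 6, also at -0.02, and the difference of 0.11 did not pass (exact permutation p = 0.0571, two-sided; 0.0952 adjusted over 5 measures). Over all 8 arrays the chromosome 8 mean lay -0.0024 from that of the other chromosomes (exact sign-flip permutation p = 0.945, two-sided), so no offset of this locus was detectable.

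The share of probes detected did not overlap between the groups, though it did not pass after adjustment. Of chromosome 8 probes, the enriched signal stood well above background at 75.7%, 82%, 74.7% and 74.7% in high-gain heifers 1 to 4, and at 67.3%, 68%, 68.7% and 51.3% in low-gain heifers 5 to 8. The probes of all other chromosomes separated likewise, with 73.7%, 75.9%, 70.6% and 74.8% in high-gain heifers, against 66.5%, 64.7%, 68.3% and 49.6% in low-gain heifers, so this separation was not peculiar to chromosome 8. On chromosome 8 no high-gain value fell as low as a low-gain one (exact permutation p = 0.0286, two-sided; 0.0714 adjusted over 5 measures). The input channel did not separate them, with 88.4% ± 4.68 over high-gain arrays and 87.6% ± 2.47 over low-gain arrays (SD, n = 4 each; exact permutation p = 0.943). The interquartile range over chromosome 8 probes was 0.69, 0.81, 1.39 and 2.00 in high-gain heifers 1 to 4, and 1.19, 2.08, 1.91 and 2.38 in low-gain heifers 5 to 8. These ranges overlapped (exact permutation p = 0.171, two-sided; 0.214 adjusted). They were close to those of the other chromosomes in the same arrays, 0.77 to 2.15 in high-gain and 1.18 to 2.37 in low-gain heifers.

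**Figure D2:**
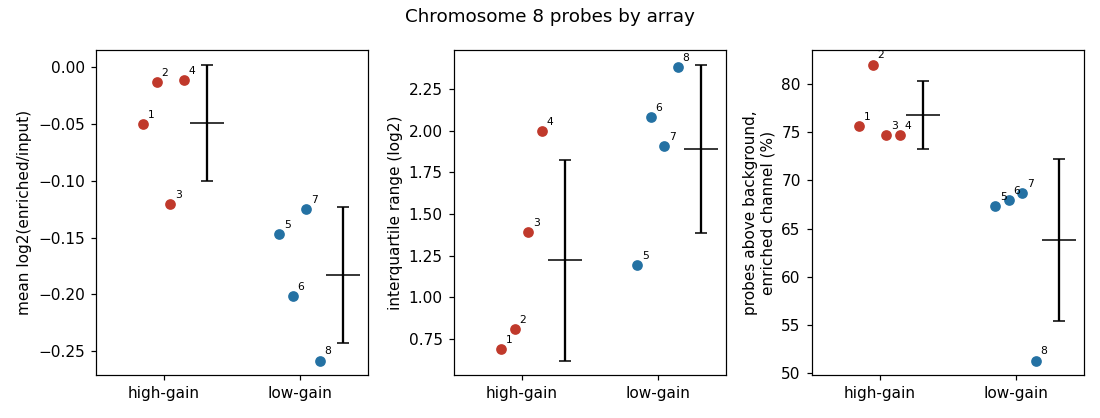
Mean log2 ratio, interquartile range of the log2 ratio and share of probes well above background in the enriched channel (y axes) over the 300 chromosome 8 probes, by feeding group (x axis). Points are arrays numbered by heifer, and bars show the group mean and SD; the mean and the detected share do not overlap between the groups, while the interquartile range does.

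The 34 regions of the locus varied around the array median. Their means over both groups ran from -1.36 to 0.46, with 21 below 0 and 13 above. High-gain and low-gain heifers had both means below 0 at 11 regions and both above 0 at 7. Across the 34 regions the 2 group profiles correlated at r = 0.456, given as a description since regions share arrays and background. Tested against 0, 4 of the 34 regions passed, all of them below the median, beside 12.9% of all 960 regions (limma, adjusted p under 0.05; 9.58% of all regions passed below 0). None passed above it, where 3.33% of all regions did. With 1 heifer left out the count was 1 (without high-gain heifer 3 or 4, or low-gain 6 or 8), 2 (without high-gain 1 or low-gain 7), 4 (without high-gain 2) or 9 (without low-gain 5). The matching counts over all regions of the array were not taken, so whether these changes are particular to this locus was not tested.

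The lowest dip lay at chr8:115267100-115267861, 106638 bp into the locus, with 3 probes. It stood at -1.18, -0.44, -1.01 and -1.54 in high-gain heifers 1 to 4, and at -0.36, -2.71, -1.56 and -2.06 in low-gain heifers 5 to 8. All 8 arrays were below the median, and the groups overlapped. The mean was -1.36 with a standard error of 0.21 (limma, adjusted p = 0.00336), and the groups differed by 0.63 (95% interval -0.29 to 1.56; limma, adjusted p = 0.486). Its probes did not share a level. The one starting at 115267100 was at -1.72, but its enriched signal was well above background on only 1 high-gain and no low-gain array. Those at 115267640 and 115267801 were at -0.63 and -1.72 and bright in both channels, and both belonged to the brightest 10% of input probes. This call held under all 22 alternatives that gave the region a value.

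The other 3 low calls depended on the processing. The widest, chr8:115236202-115243500, held 20 probes and was the most even of the 4 across heifers, though not along its probes. It stood at -0.32, -0.38, -0.29 and -0.30 in high-gain heifers, and at -0.56, -0.25, -0.18 and -0.52 in low-gain heifers. The median over its probes gave only -0.17 (limma, adjusted p = 0.334). Its mean was -0.35 with a standard error of 0.11 (limma, adjusted p = 0.0470), and the call was lost under 17 of 23 alternatives, with every value still below 0 (-0.43 to -0.17). Within it the probe at 115239446 was the lowest of the chromosome, at -2.66 (limma, adjusted p = 0.00839 over 10249 probes). That probe, whose call was lost only within a single slide row, averaged -3.01 in the high-gain and -2.30 in the low-gain group and had an enriched signal well above background on all 8. The 11-probe stretch at chr8:115342921-115348797 was at -0.64 (standard error 0.16; limma, adjusted p = 0.0245), below 0 in 7 of 8 heifers, with high-gain heifer 2 at 0.29, and its call was lost under 9 of 23 alternatives. The 3-probe stretch at chr8:115250947-115252338 was at -0.79 (standard error 0.23; limma, adjusted p = 0.0435), and ranged from -2.05 to 0.09 in high-gain and from -1.81 to -0.14 in low-gain heifers, and its call was lost under 16 of 23. Over these 23 its values ran from -0.96 to -0.10, the smallest with normexp. The fourth lowest region, chr8:115193942-115195201, was at -0.57 and did not pass (limma, adjusted p = 0.0766). It passed with the slide column as a block (limma, adjusted p = 0.0436), within slide row 1 (-0.83) and with heifer 7 left out (-0.77), but was at 0.0035 over probes above background in input.

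No region passed above 0. The highest, chr8:115244653-115247241, lay beside the low region at 115236202 and held 6 probes, at -0.02, 0.31, 0.19 and 0.30 in high-gain heifers and -0.08, 0.64, 0.81 and 1.58 in low-gain heifers. It averaged 0.46 with a standard error of 0.16 (limma, adjusted p = 0.0665), and its high mean came mainly from heifers 6, 7 and 8, with heifer 5 below 0. It passed under 7 of 23 alternatives, among them the slide row as a block (limma, adjusted p = 0.0473) and heifer 5 left out (0.60; limma, adjusted p = 0.0111). Of its 6 probes, 2 had an enriched signal not well above background on all 4 low-gain arrays, and 1 of these on all 8. After it came chr8:115191214-115192097 at 0.28, chr8:115350249-115352210 at 0.22 and chr8:115167019-115169343 at 0.18 (limma, adjusted p = 0.265, 0.375 and 0.302). The region at 115191214 passed with heifer 5 left out (0.44; limma, adjusted p = 0.0408) and the one at 115167019 with loess (0.39; limma, adjusted p = 0.0445). Among single probes, 15 of 300 passed against 0, beside 5.54% of all 10249 (limma, adjusted p under 0.05). Only the probe at 115336150 of these was above the median, at 0.92 (limma, adjusted p = 0.0499), with 0.53 in the high-gain and 1.31 in the low-gain group, and it did not pass under 15 of 22 alternatives.

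**Figure D3:**
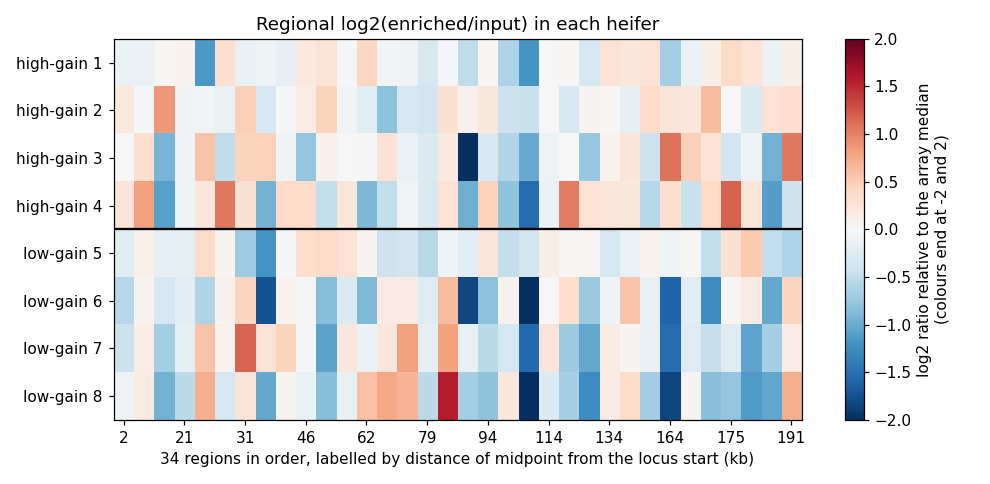
Log2(enriched/input) of the 34 regions in order along the locus (x axis, distance of the midpoint from the locus start) for each heifer (y axis, high-gain above the line). Red is above and blue below the array median, with colours ending at -2 and 2; the column of the lowest region, 106638 bp into the locus, is blue in all 8 heifers, and the patterns of low-gain heifers 6, 7 and 8 resemble one another.

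Between the groups, 0 of 34 regions passed the adjusted threshold, beside 0.104% of all 960 regions. At unadjusted p under 0.05, 2 of 34 were higher in high-gain heifers, beside 6.25% of all regions, and 0 were lower, beside 8.23% (limma). Both counts are near or under the share over the whole array. The differences ran from -0.54 to 1.51 with a median of 0.14, against a median of -0.03 over all 960 regions, and 22 of the 34 were above 0, beside 47.9% of all regions. When low-gain heifer 5 was left out, both passed the adjusted threshold, as did 25 of all 960 regions, and 6 regions were higher and 4 lower at unadjusted p under 0.05, beside 107 and 172 of all 960 (limma). When high-gain heifer 3 or 4 was left out, 4 were higher and 0 lower, while 78 and 83 of all regions were higher.

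Both of these regions lay near the distal end of the locus, with 1 region between them. The one with the smaller p was chr8:115330344-115333027, with 5 probes, 169882 bp into the locus. It stood at 0.13, 0.64, 0.28 and 0.40 in high-gain heifers 1 to 4, and at -0.49, -1.25, -0.47 and -0.84 in low-gain heifers 5 to 8. Every high-gain heifer was above the median and every low-gain heifer below it, with no overlap. High-gain arrays averaged 0.36 ± 0.21 and low-gain arrays -0.76 ± 0.37 (SD, n = 4 each). High-gain minus low-gain was 1.12, with standard error 0.25 and a 95% interval of 0.59 to 1.66. It ranked 5th of 960 regions by p but did not pass the adjusted threshold (limma, unadjusted p = 0.000598, adjusted p = 0.111). All high-gain arrays lay above all low-gain arrays at 2.6% of the 960 regions and at 1 other region of this locus, chr8:115177349-115185645, and below them at 3.65% and at 0 of the 34.

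That difference did not come evenly from its probes or from 1 channel. The probe starting at 115332967 was at 0.02, 0.36, 0.91 and 0.95 in high-gain heifers, and at -1.64, -3.98, -3.27 and -3.26 in low-gain heifers. The one at 115331619 was at 0.58, 0.30, 0.57 and 2.10 in high-gain heifers, and at 1.24, -1.36, -1.46 and -2.15 in low-gain heifers, so heifer 5 joined the high-gain range there. The probes at 115330344 and 115332552 went slightly the other way, with differences of -0.30 and -0.45. At the remaining one, 115331277, the input was well above background on no high-gain array and the enriched signal on no low-gain array, so its ratio is no measured level. Over probes above background in both channels on at least 4 arrays the difference was 1.16. In the enriched channel alone the region differed by 0.41 (standard error 0.27; limma, unadjusted p = 0.159) and in the input channel by -0.70 (standard error 0.20; limma, unadjusted p = 0.00451, adjusted p = 0.907). The probe at 115331277 had the most negative input difference of the 5, -1.32. The probes at 115331619, 115332552 and 115332967 belonged to the brightest 10% of input probes. Without these only 115330344 and 115331277 are left, and the region differed by 0.33 (limma, adjusted p = 0.712). With loess it was 0.65 (limma, adjusted p = 0.336). With normexp background correction it was 1.12 and passed (limma, adjusted p = 0.0245), as it did with array weights (1.06, limma, adjusted p = 0.0171) and when low-gain heifer 5 was left out (1.21, limma, adjusted p = 0.0329).

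The second region, chr8:115324250-115325304, held 4 probes, none of them in the brightest class of input. Those starting at 115324250, 115324782 and 115325061 were in the second brightest class, and that at 115325244 was in the middle one. It stood at -0.69, 0.26, 1.09 and 0.32 in high-gain heifers 1 to 4, and at -0.08, -1.59, -1.53 and -1.84 in low-gain heifers 5 to 8. Low-gain heifers 6, 7 and 8 were below all high-gain heifers, while low-gain heifer 5 lay above high-gain heifer 1, so the groups overlapped. Means were 0.25 ± 0.73 in the high-gain and -1.26 ± 0.80 in the low-gain group (SD, n = 4 each). High-gain minus low-gain was 1.51, with standard error 0.42 and a 95% interval of 0.59 to 2.42 (limma, unadjusted p = 0.00360, adjusted p = 0.175). All 4 probes differed in this direction, by 0.98 to 2.66. Here the enriched channel held most of the difference, at 1.11 (standard error 0.49), against -0.39 (standard error 0.23) in the input channel. In slide row 1 the difference was 0.62 and in row 2 it was 2.39, each from 2 heifers per group. Scaling all arrays to 1 spread gave 1.02 (limma, adjusted p = 0.459), and loess gave 1.12 (limma, adjusted p = 0.283). With low-gain heifer 5 left out it was 1.90 and passed (limma, adjusted p = 0.0277).

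**Figure D4:**
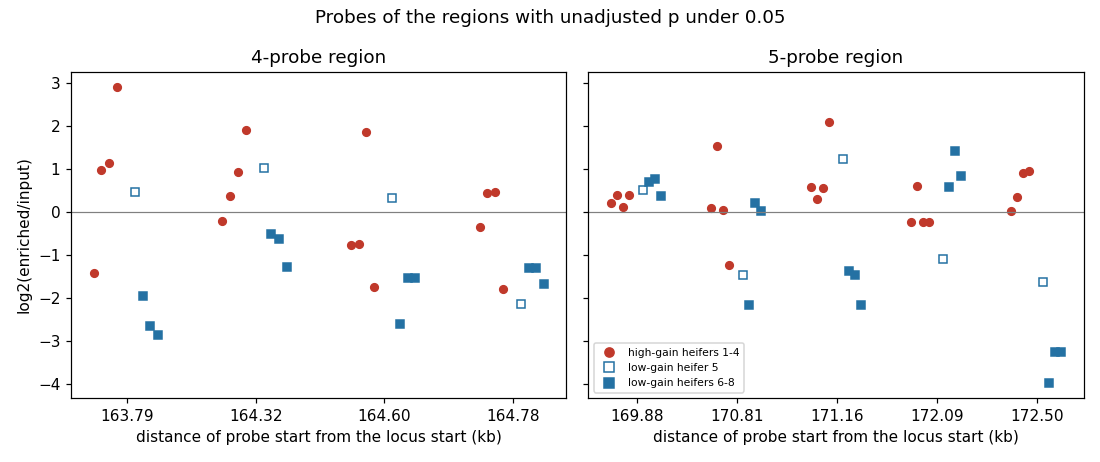
Log2(enriched/input) (y axis) of each probe of the 4-probe (left) and the 5-probe region (right) that had unadjusted p under 0.05, by distance of the probe start from the locus start (x axis). Circles are high-gain heifers 1 to 4, the open square is low-gain heifer 5 and filled squares are low-gain heifers 6 to 8; at the last probe of the 5-probe region all high-gain values are at 0.02 to 0.95 and all low-gain values at or below -1.64.

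The region between this pair, chr8:115326602-115329089, differed by only 0.13 (standard error 0.25; limma, unadjusted p = 0.608), so the pair did not form 1 unbroken stretch. In windows of 20000 bp from the locus start, given as a description, the ninth window, from 115320462, which holds both regions, had the largest difference. It stood at 0.06, 0.14, 0.21 and 0.42 in high-gain heifers 1 to 4 and at 0.15, -0.42, -0.68 and -0.88 in low-gain heifers 5 to 8, so low-gain heifer 5 lay inside the high-gain range. The other nine windows differed by -0.21 to 0.40. The groups did not overlap in the first window, with -0.04 ± 0.13 over high-gain and -0.26 ± 0.04 over low-gain arrays. They did not overlap in the seventh either, from 115280462, with 0.10 ± 0.23 over high-gain and -0.30 ± 0.17 over low-gain arrays (SD, n = 4 each). Windows were not taken on the other chromosomes, so whether such a separation is more frequent here than elsewhere was not tested.

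**Figure D5:**
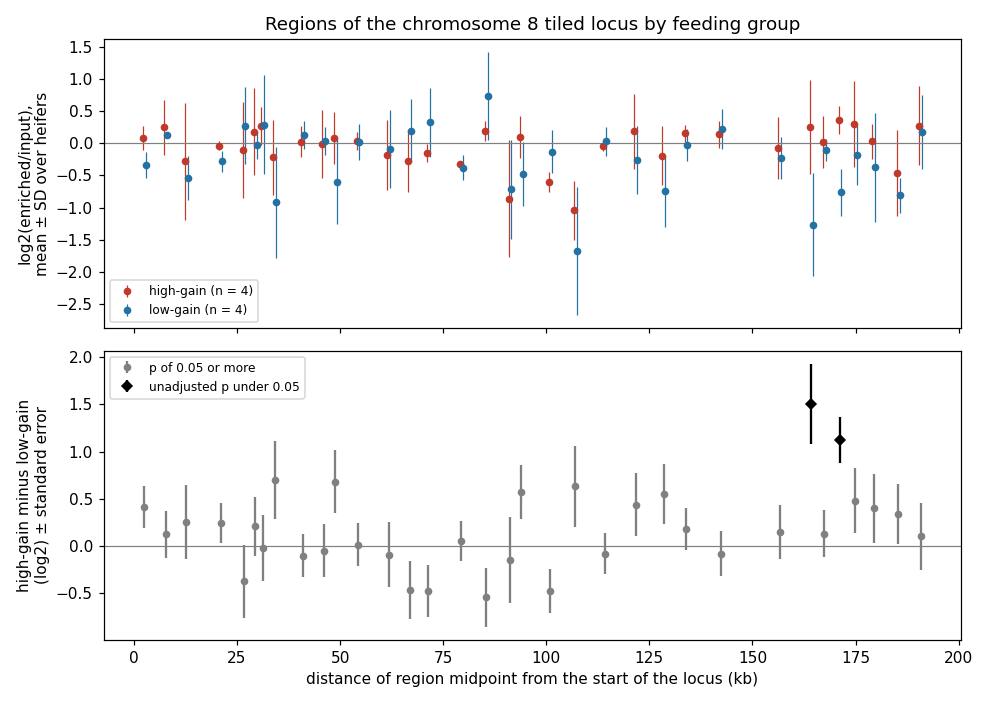
Upper panel, mean and SD over 4 heifers of log2(enriched/input) for each of 34 regions (y axis), high-gain in red and low-gain in blue, against distance from the locus start (x axis). Lower panel, the high-gain minus low-gain difference with its standard error; the 2 regions at unadjusted p under 0.05 (diamonds) differ by 1.51 and 1.12, while all others lie between -0.54 and 0.70.

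Of the 300 single probes, 0 passed the adjusted threshold between the groups, as over the whole array, where 0% of 10249 did (limma, smallest adjusted p on chromosome 8 0.167). At unadjusted p under 0.05, 25 were higher in high-gain heifers, beside 7.21% of all probes, and 10 were lower, beside 5.23% (limma). The counts made up 8.33% and 3.33% of the 300, near the shares of the array. Together these 35 stood beside 12.4% of all probes, and 141 of the 300 differences were above 0, beside 44.7%. The higher ones differed by 1.29 to 3.59 and the lower ones by -1.59 to -0.86. Of the 25 higher probes, 22 were in the 2 brightest classes of input, as were 3 of the 10 lower ones. These classes held 67 (second brightest) and 51 (brightest) of the 299 locus probes. The matching split of such probes over the whole array was not taken, so whether it is particular to chromosome 8 was not tested. The groups did not overlap at 9 probes in the higher direction, beside 2.67% of all probes, and at 11 in the lower, beside 4.2%. No 3 neighbouring probes within 1000 bp reached an unadjusted p under 0.05 in the same direction, the longest run being 2. Such runs were rare on the whole array too, with 13 over all 10249 probes, the longest of 4 probes. When low-gain heifer 5 was left out, 34 probes were higher and 34 lower at unadjusted p under 0.05, and 14 passed (limma), beside 1120, 1222 and 308 of all 10249. Leaving out heifer 7 gave 16 and 4, beside 563 and 335 of all 10249. Leaving out heifer 8 gave 14 and 3, beside 444 and 301, with 0 passing in either case. The lower count was 4 when heifer 2 was left out and 6 when heifer 6 was, beside 395 and 399 of all 10249.

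The probe at chr8:115332967-115333027, described above, led with a difference of 3.59 (95% interval 2.35 to 4.84; limma, unadjusted p = 8.32e-05, adjusted p = 0.167) and ranked 4th of 10249 by p. It was well above background in both channels on all 8 arrays, and most of the difference lay in the enriched channel (standard error 0.60 there), against -0.49 in the input channel. The probe just before it did not follow, differing by -0.45. Next came chr8:115164930-115164990, at 1.19, 1.03, 2.70 and 1.23 in the high-gain group and 0.39, -1.37, -0.93 and -1.76 in the low-gain group. Then came chr8:115281317-115281372, at 0.61, -0.52, 0.25 and 1.72 in the high-gain group and -0.59, -3.07, -2.26 and -3.39 in the low-gain group. At both the groups were separate, with low-gain heifer 5 the closest to the high-gain heifers. The probes at 115238502 and 115181811 differed by 3.09 and 1.49, and at the first of them low-gain heifer 5, at -0.26, lay above high-gain heifer 2, at -0.48. All 5 had bright input, 4 of them in the brightest class, and none passed (limma, adjusted p = 0.167 to 0.307). The leading probe passed with array weights (limma, adjusted p = 0.0289) and with heifer 5 left out (limma, adjusted p = 0.0237). Those at 115164930, 115281317 and 115238502 passed under 2 alternatives each (limma, lowest adjusted p = 0.0345, 0.0345 and 0.0288). That at 115181811 passed under 1 (limma, lowest adjusted p = 0.0399). With array weights 330 of all 10249 probes passed, and with heifer 5 left out 308 did (limma).

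Among the 5 leading probes in the other direction, signal was often the limit. At chr8:115230471-115230518 the difference was -1.53 without overlap, but the enriched signal was not well above background on any of the 8. At chr8:115284712-115284772 it was -1.38, where it was so on only 1 high-gain and no low-gain array. At chr8:115326602-115326662 it was -1.59, where it was so on 2 arrays of each group. The other 2 were well above background in both channels on all 8 arrays. The probe at chr8:115222336-115222387 stood at 0.31, -0.04, -0.48 and 0.93 in the high-gain group and 0.46, 1.54, 1.90 and 1.99 in the low-gain group, with heifer 5 inside the high-gain range. Its difference of -1.29 was -0.59 with normexp and -0.01 with loess (limma, adjusted p = 0.995). The one at chr8:115239053-115239098 was at -0.20, -0.67, -0.99 and -0.43 in the high-gain group and 0.23, 0.80, 0.57 and 0.11 in the low-gain group, so it was below the array median in every high-gain heifer and above it in every low-gain heifer. The group means there were -0.57 in the high-gain and 0.43 in the low-gain group, and the difference (standard error 0.40) did not pass (limma, unadjusted p = 0.0306, adjusted p = 0.354).

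The lone probe at chr8:89745989-89746049 lay 25414413 bp before the locus. It stood at -0.45, 0.25, -2.52 and 1.92 in high-gain heifers 1 to 4 and at -0.80, 2.79, -1.88 and -1.55 in low-gain heifers 5 to 8. The values of both groups spread over more than 4 log2 units, and the difference of 0.16 had a standard error of 1.17 (limma, adjusted p = 0.962). It has no neighbour to average with, so it bears on no difference smaller than that spread.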

How the data were processed

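DNA of 8 heifers, 4 per feeding schedule, was measured on 1 slide with 1 scan date and 1 array per heifer. Per the file headers, Agilent Feature Extraction 10.7.1.1 read the spots, and the deposited intensity values used are its background-subtracted, dye-normalised processed signals. The authors' deposited table of log2 ratios was log2 of red over green median signal after background subtraction, equal within 0.0001 at 100% of the spots positive in both channels. It served as an alternative, and it was not centred (array medians -1.82 to 0). Probe positions are those of the array design, on Btau_3.1 per the file headers.

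For each of 10249 non-control probes log2 of the enriched over the input signal was taken, without 28 outlier-flagged spots (1 on chromosome 8, in low-gain heifer 7), and the array median was subtracted. No spot was saturated. Probes, 960 regions and 97 loci of all chromosomes were fitted with limma 3.58.1 in R 4.3.3 (two-sided, Benjamini-Hochberg, threshold 0.05). Single values per array took exact permutation tests. The same steps were tested on simulated data. Having 4 arrays a group limits the precision. Named regions were those at unadjusted p under 0.05 and the 4 highest and 4 lowest; named probes were the 5 with the largest absolute moderated t in each direction, plus some chosen after their values were seen. The members and lists were chosen with earlier results of these data known. Alternatives covered background correction, normalisation, dim and bright probes, centring, slide position, array weights, region and locus gaps, and each heifer left out. The setting without the brightest 10% of input probes, the 20000 bp windows and the comparison of group means after subtracting the other chromosomes were chosen after seeing the data. No date or batch of the capture step is recorded in the sources used here.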

Additional observations from a re-analysis of the deposited data

Results flagged for a closer look

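Of 52 groups of 4 arrays examined for the values reported above, 3 held a heifer far from the other three, and chance flags about 1 in 20 such groups. In the share of chromosome 8 probes well above background in the enriched channel, high-gain heifer 2 stood apart at 82%, the other high-gain heifers being at 74.7% to 75.7%. In the same measure low-gain heifer 8 was at 51.3%, the other low-gain heifers being at 67.3% to 68.7%. At the probe starting at 115164930, high-gain heifer 3 was at 2.70, the other high-gain heifers being at 1.03 to 1.23.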

How the results depend on the processing

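The locus difference kept its sign and stayed short of the threshold under all 25 alternatives, from 0.04 with loess to 0.25 over probes above background in both channels (limma, adjusted p = 0.0819 to 0.985). Normexp background correction moved the median difference over all 960 regions from -0.03 to 0.11. The locus profile passed with normexp (-0.13) and array weights (-0.13). The offset of chromosome 8 from the other chromosomes, -0.0024, turned with normexp (0.0178), the authors' values (0.0203), loess (0.0457), input signal above background (0.0169), both signals above it (0.0208) and within slide row 2 (0.0112), and ran from -0.0269 to 0.0104 with 1 heifer left out. The group difference in input detection turned within slide row 1 (-2.17) and ran from -1.25 to 2.53 with 1 heifer left out. Regions past the adjusted threshold numbered 1 with normexp (7 of all 960), 5 with array weights (192 of all 960) and 0 to 2 with 1 heifer left out (0 to 25). Regions higher at unadjusted p under 0.05 numbered 10 with normexp (175 of all 960) and 5 over probes above background in both channels (119 of 919). They numbered 1 without the brightest 10% of input probes (39 of 950) and 5 with the slide column as a block (62 of 960). They numbered 4 within slide row 2 (53 of 960), 8 with array weights (150 of 960) and 1 with a gap of 2000 bp (28 of 407). With 1 heifer left out they numbered 2 to 6 (40 to 107 of all 960). Regions lower numbered 1 with scaling (60 of all 960), 3 within slide row 2 (72 of 960) and 4 with array weights (214 of 960). They numbered 2 with a gap of 500 bp (69 of 1252) and 1 with a gap of 2000 bp (46 of 407). With 1 heifer left out they numbered 0 to 4 (36 to 172 of all 960). The 4 regions of the profile became 2 with the authors' values, 7 over probes above background in input, 1 with the median over probes, 1 without the brightest input probes, 2 within slide row 1, 8 with array weights, 1 with the robust trended fit, 1 with a gap of 2000 bp and 1 to 9 with 1 heifer left out. For these profile counts the matching counts over all regions were not taken. Probes past the adjusted threshold numbered 13 with array weights (330 of all 10249) and 0 to 14 with 1 heifer left out (0 to 308 of all 10249). Probes higher numbered 16 with scaling (571 of all 10249), 8 within slide row 1 (478) and 40 with array weights (1552). With 1 heifer left out they numbered 14 to 34 (444 to 1120 of all 10249). Probes lower numbered 4 with scaling (385 of all 10249), 6 with the slide column as a block (381), 4 within slide row 1 (163) and 49 with array weights (1638). With 1 heifer left out the lower probes numbered 3 to 34 (301 to 1222 of all 10249). The profile at 115167019 was -0.14 with normexp and that at 115193942 was 0.0035 over probes above background in input. The dip at 115267100 passed under every alternative that gave it a value (-1.58 to -1.10; limma, adjusted p = 0.00014 to 0.0344), but had no value without the brightest input probes. The cause of these changes was not tested. No replicate number is shared between the groups, so none could be blocked. No paired analysis was possible because no pairing of heifers between the groups is recorded in the sources used here.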
